A study of Mus musculus with 9 samples.

Results

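AGM-s3-A9 and AGM-s3-A7 are mouse stromal cell lines from the aorta-gonad-mesonephros (AGM) region, and their transcript levels were compared here on 6 arrays chosen by the line name in their titles, of 9 in the series. The labels call AGM-s3-A9 supportive of hematopoiesis and AGM-s3-A7 non-supportive, and give no genotype, treatment, culture time or number of cultures. A line has 3 arrays, 1 each of the Affymetrix designs MG-U74A, MG-U74B and MG-U74C, whose probe sets differ. The other 3 arrays held another line, OP9, and entered the normalization, the detection level and 1 alternative choice of probe sets. With 1 array a side and array type there are no replicates, so no p-value or replicate error can be given, and a difference between these arrays cannot be told apart from one between single cultures of each line.

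The AGM region is the part of the embryo, around the dorsal aorta and the urogenital ridges, where the first hematopoietic stem cells arise. Stromal cells surround blood-forming cells and act on them through membrane-bound and secreted cytokines, chemokines, adhesion receptors and the extracellular matrix they lay down. Lines isolated from 1 region can differ in how well blood-forming cells grow on them, and the comparison of such a pair asks which transcripts differ between a line that maintains hematopoiesis and one that does not.

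Levels are normalized intensities, which can be compared between the lines for 1 probe set but not between genes. A probe set was counted as measured when it exceeded a detection level in at least 1 of the 2 lines. That level was 49.0 for MG-U74A, 52.8 for MG-U74B and 61.5 for MG-U74C, and values below it were raised to it before a ratio was formed. A fold against a line below the level is therefore a lower bound, written as "at least". The sign of such a ratio follows from which line exceeded the level. Of 36701 probe sets without the controls, 13143 were measured, and they stand for 8585 genes named by 1 symbol. The lines correlated at a Spearman coefficient of 0.91 over the measured probe sets of MG-U74A, 0.82 over those of MG-U74B and 0.79 over those of MG-U74C. Where an array type reads a gene by several probe sets above detection in both lines, which gave 1577 pairs, the log2 ratio of a single probe set had a robust SD of 0.31. Both members of a pair were read on the same arrays, so this SD holds no variation between arrays or cultures, and it leaves out genes given as bounds. A 2-fold difference, 1 on the log2 scale, was used as the mark of a difference throughout.

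Both lines had the profile of fibroblastic stroma. Of 16 stromal fibroblast markers, 15 were measured, among them Col1a1, a chain of type I collagen, at 6684 in AGM-s3-A9 and 6174 in AGM-s3-A7, and Pdgfra, a receptor of mesenchymal cells, at 1187 and 1720. The exception was Vim, whose probe set read 21.7 and 17.9. Of 16 hematopoietic markers 14 were not above detection, Ptprc (CD45) reading 1.44 and 0.90, and of 13 endothelial markers none was, Cdh5 reading 3.54 and 2.78. The summed intensity of the hematopoietic list was 246 in AGM-s3-A9 and 326 in AGM-s3-A7, and that of the endothelial list 139 and 117. Epithelial markers exceeded detection for 3 of 14, neural for 4 of 11 and muscle for 3 of 14. The epithelial ones were Cdh1 (101 and 126), Epcam (85.7 and 103) and Cldn7 (148 and 229), while the keratins were below detection. The neural ones were Tubb3, the brightest of them in both lines, Map2, Sox10 and Stmn2. The muscle ones were Actc1 (680 and 832), Myod1 (67.4 and 87.2) and Tnni1, while the myosin heavy chains of that list were below detection. Gonadal and mesonephric markers exceeded detection for 5 of 14. Nr5a1, a transcription factor of the gonad and adrenal, read 397 and 460 on its brightest probe set, and its 4 other probe sets were not above detection. The other measured ones were Gata4 (71.0 and 43.3), Inha (92.7 and 44.0), Osr1 (147 and 208) and Cyp17a1 (8.60 and 53.5). Wt1 and Lhx9, which mark the genital ridge, were below detection in both lines.

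The lines were alike for most genes. Of 8585 genes, 261 (3.04%) were higher in AGM-s3-A9 by 2-fold or more and 192 (2.24%) were lower by as much. Among the probe sets, 379 of 13143 (2.88%) were higher and 286 (2.18%) lower. The median log2 ratio of the genes was 0.0058, and 5% of them lay below -0.75 and 5% above 0.83. A difference of at least 4-fold was reached by 27 genes in favour of AGM-s3-A9 and by 19 in favour of AGM-s3-A7. The balance of these counts depended on the scaling, since genes higher made up 57.6% of the called genes here, 80.1% with the values as deposited and 84.8% when the arrays were scaled by their hybridization controls. Under both of those scalings the median log2 ratio of all genes was 0.24, and ratios below are given relative to arrays of equal distribution. Where a called gene had another measured probe set, that second reading mostly went the same way. Among 72 such genes higher in AGM-s3-A9, all others had the same sign for 61, and for 24 another probe set was also 2-fold higher. For 53 such lower genes the numbers were 51 and 15, and in neither direction did a second probe set pass 2-fold the opposite way.

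**Figure D1:**
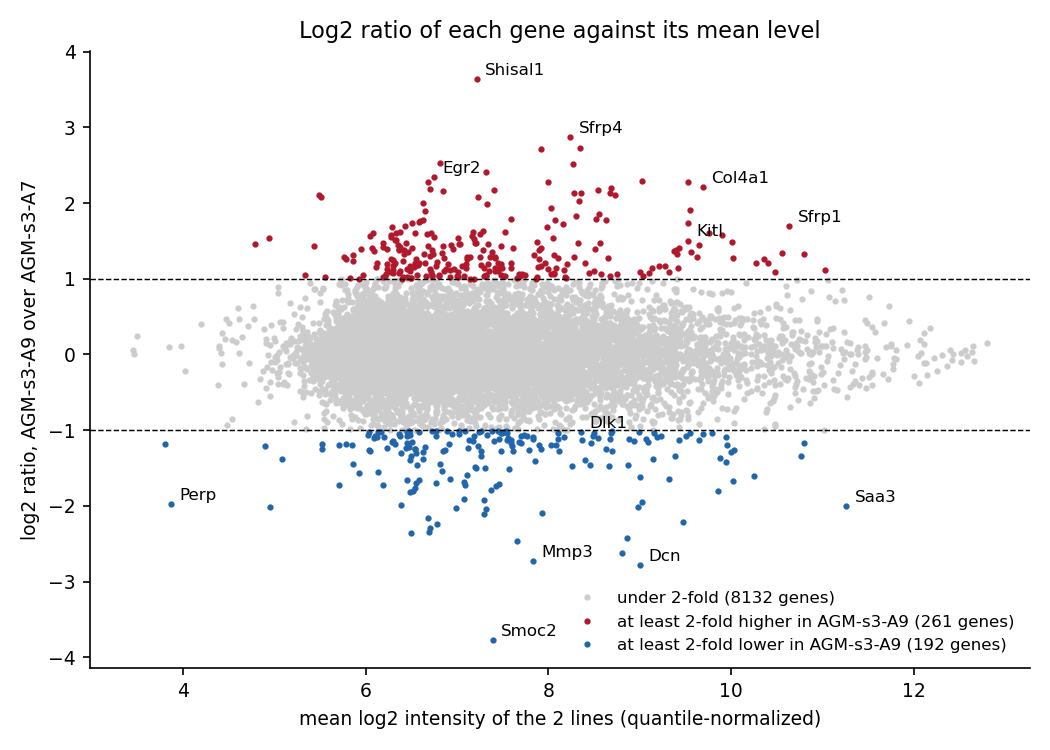
Log2 ratio of AGM-s3-A9 over AGM-s3-A7 (y axis) against the mean log2 normalized intensity of both lines (x axis), 1 point a gene, 8585 genes; dashed lines mark 2-fold. The 261 genes higher (red) and 192 lower (blue) lie mostly at low and middle levels. Some bright genes also pass the dashed lines, such as Sfrp1 (2861 and 882, higher) and Saa3 (1221 and 4898, lower). Ratios were formed after raising values to the detection level, which pulls dim genes towards 0.

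The largest difference above detection in both lines was in Sfrp4, a secreted frizzled-related protein that binds Wnt ligands, which read 816 in AGM-s3-A9 and 112 in AGM-s3-A7 (7.31-fold). Mfap2, a glycoprotein of elastin-associated microfibrils, read 837 and 127 (6.61-fold), and Gpc6, a cell-surface glypican that carries heparan sulfate, read 619 and 94.1 (6.58-fold). The 15 genes of this kind, those above detection in both lines with the largest fold, ranged down to 4.39-fold. They held the feedback inhibitors Spry1 and Spry2, the integrin-linked adaptor Parvb, the hypoxia-inducible transcription factor Epas1, the gelatinase Mmp9, the basement membrane collagen Col4a1 and the microfibril protein Fbn2. Also among them were Rarres2, which encodes the attractant chemerin, the thrombin receptor Thbd, the microtubule-associated Map2, the adhesion receptor Adgrf5 and the phosphodiesterase Pde3b. All 15 kept at least 2-fold under each of 12 alternative settings that measured them. Thbd was read unequally by its probe sets, 793 and 176 on the one and 103 and 93.7 on the other. Epas1 was read at 1620 and 334 on MG-U74B and at 301 and 44.1 on MG-U74A, where the second value is below detection.

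Some transcripts were above detection in AGM-s3-A9 alone. Shisal1 led them, at 659 against 33.7 (at least 12.5-fold), and its other MG-U74B probe set read 198 against 26.1. Mest, whose maternal copy is silenced by imprinting, read 282 against 45.0 (at least 5.75-fold). The zinc-finger factor Egr2 read 248 against 46.4 (at least 5.05-fold). Ripk3, a kinase of necroptosis, read 257 against 41.0 (at least 4.87-fold), and Ada, the purine enzyme adenosine deaminase, read 222 against 48.8 (at least 4.53-fold). For Egr2, Mest and Ada the AGM-s3-A7 value lay just under the detection level of 49.0, so that these bounds are near the measured ratio. In contrast, the angiotensin receptor Agtr2 was near 0 in AGM-s3-A7 on both array types, at 266 against 7.63 on MG-U74C and 370 against 1.67 on MG-U74A, where another probe set was below detection in both lines. Col15a1, a collagen of basement membrane zones, read 207 in AGM-s3-A9 and was also far below detection in AGM-s3-A7 (at least 4.22-fold).

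Among the leading genes lower in AGM-s3-A9, Smoc2, a secreted matricellular protein that binds calcium, read 42.1 in AGM-s3-A9 and 667 in AGM-s3-A7 (lower by at least 13.6-fold), and on MG-U74C 15.3 and 110. Dcn, encoding decorin, a small proteoglycan that binds collagen fibrils, read 196 and 1349 (6.89-fold lower). Mmp3, the secreted protease stromelysin, read 88.4 and 585 (6.61-fold lower). Prelp, a relative of decorin that anchors basement membranes to connective tissue, was lower on both of its probe sets, at 181 and 1109 on the one and 252 and 753 on the other. The siderophore-binding protein Lcn2 read 85.7 and 474 (5.53-fold lower) on one probe set and 53.9 and 69.2 on a dimmer one. Saa3, an acute-phase apolipoprotein, read 1221 and 4898 (4.01-fold lower).

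Others of the 15 lower genes above detection in both lines were Mfap5, a second microfibril glycoprotein, the carboxypeptidase-like Cpxm1, the endoplasmic reticulum receptor Retreg1, Nrep, the caveolar protein Cav1, the chemokine scavenger Ackr3, the adhesion protein Amigo2, the transcription factor Fosl2 and the protease Adamts12. Clec11a, a growth factor of osteogenic and hematopoietic precursors, belonged to them, at 62.7 and 256 (4.08-fold lower). Of these 15, 10 kept 2-fold under every alternative setting that measured them. Among genes above detection only in AGM-s3-A7, Cdh13, a cadherin with no transmembrane part, was below detection in AGM-s3-A9 on all of its probe sets and read 268, 199 and 136 in AGM-s3-A7 on the 3 brightest. Perp, a membrane protein of desmosomes, read 1.11 and 193, and the integrin-beta-like Itgbl1 3.88 and 249. Fndc1, Lgals3, Ptbp2, Ahnak2, Prxl2a and Hoxc8 completed the 10 largest bounds. Of the 10 largest bounds in each direction, 6 higher and 4 lower ones stayed at 2-fold or more under every alternative setting that measured them.

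**Figure D2:**
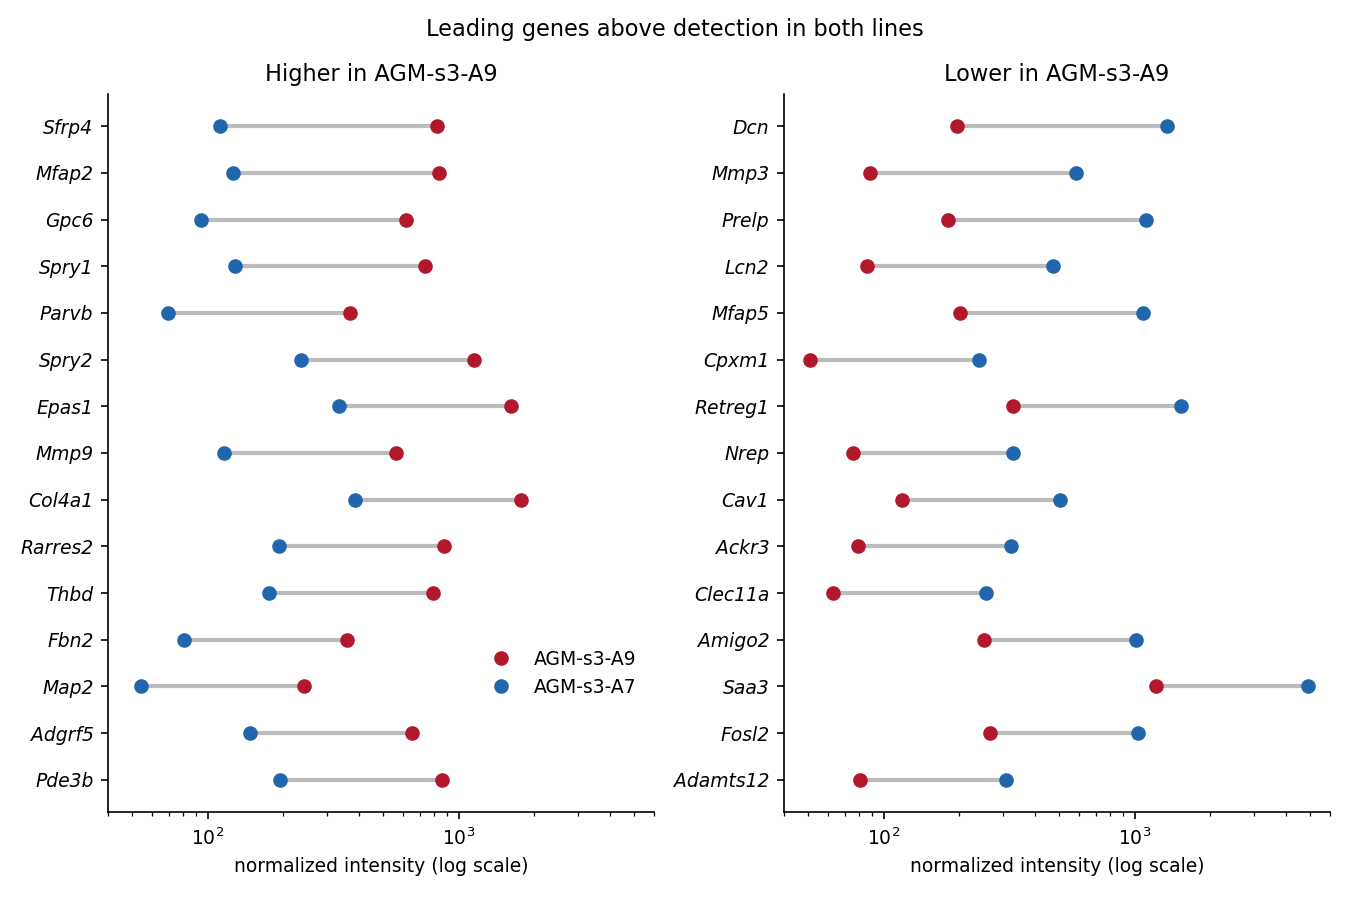
Normalized intensity (log axis) of AGM-s3-A9 (red) and AGM-s3-A7 (blue) for the 15 genes with the largest fold in each direction among those above detection in both lines; 1 value a line, with no replicates. Left, genes higher in AGM-s3-A9, from Sfrp4 at 7.31-fold to Pde3b at 4.39-fold; right, genes lower, from Dcn at 6.89-fold to Adamts12 at 3.80-fold.

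Genes that act on blood-forming cells were described first among 60 gene lists. Kitl, the ligand of the receptor Kit and a survival factor of hematopoietic stem cells, read 1243 in AGM-s3-A9 and 438 in AGM-s3-A7 (2.84-fold higher). Ccn3, a matricellular protein known to act on stem cells, read 1622 and 668 (2.43-fold higher). Dlk1, a membrane protein related to Notch ligands, went the other way, at 230 and 467 (2.03-fold lower). Csf1, the macrophage colony-stimulating factor, read 1260 and 719, a ratio of 1.75 that missed the mark. Of the 10 measured cytokines and growth factors in this list, 2 were higher and 1 lower, beside 3.04% and 2.24% of all genes, and their median log2 ratio was 0.55. In lists this short 1 or 2 called genes weigh heavily, and the same 2 shares are the background of each count that follows. Tnfsf11 lay at a log2 ratio of 0.86, Il6 at -0.50 and Csf3 at -0.89.

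Cxcl12, the chemokine that holds stem cells in their niche, gave unequal readings. Its brightest probe set read 4213 and 2712 (1.55-fold), a second on the same array type 3101 and 977 (3.17-fold), another one 2476 and 2735, and one on MG-U74B 73.9 and 59.6. Only the one at 3.17-fold passed the mark, and the one at 2476 was lower in AGM-s3-A9. Vcam1, the adhesion receptor to which blood cells bind through integrins, read 506 and 387 (1.31-fold), and its other probe sets gave 1.40-fold and 1.56-fold. Hgf, a ligand of the receptor Met, read 128 in AGM-s3-A9 and was below detection in AGM-s3-A7 at 29.9 (at least 2.62-fold higher), while Met itself lay at a log2 ratio of -0.65. Fgfrl1, an FGF receptor without a kinase domain, read 429 and 177 (2.43-fold higher). Among 9 measured angiopoietins, VEGFs and their receptors, Nrp2 alone passed, at 51.4 and 172 (at least 3.26-fold lower). Angpt2, which loosens vessels, read 296 and 517.

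Chemokine transcripts were higher for 4 of 12 measured members and lower for 1, with a median log2 ratio of 0.37. Cx3cl1, a membrane-bound chemokine, read 1083 and 416 (2.60-fold), and Ccl9 read 488 and 199 (2.45-fold). Ccl5 and Cxcl16 were 2.19-fold and 2.13-fold higher. The lower member was Ackr3, which takes up CXCL12 from the surroundings, at 78.6 and 323. Il1rn, the antagonist of interleukin-1, read 686 and 157 (4.37-fold higher), against the lower levels of Saa3 and Lcn2 in the same acute-phase list, in which 1 of 19 measured genes was higher and 2 lower.

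Antigen presentation and interferon-induced genes leaned towards AGM-s3-A9. Of 14 measured genes of MHC class I presentation 13 had a ratio above 0 and the median log2 ratio was 0.58, yet 1 passed 2-fold. That gene, H2-K1, a class I heavy chain, read 1349 and 403 (3.34-fold), and another of its probe sets 224 and 56.2. H2-D1, another heavy chain, fell just short of 2-fold, while both of its other measured probe sets passed it in the same direction. Class I genes are near-identical copies, and the suffix of the first probe set marks it as able to bind related transcripts. The peptide transporter genes Tap1 and Tap2 lay at log2 ratios of 0.82 and 0.61 and the immunoproteasome subunits Psmb9, Psmb10 and Psmb8 at 0.80, 0.56 and 0.52, while B2m read 2430 and 1924. Among 21 measured interferon-induced genes, 18 had a ratio above 0, 4 were 2-fold higher and none 2-fold lower, with a median of 0.33. The 4 were Oasl2 (141 and 49.3), Lgals3bp (2799 and 1121), Ifi202b (233 and 106) and Iigp1 (131 and 61.3). Of the 18, Oasl2, Ifit1 and Igtp exceeded detection in AGM-s3-A9 alone, which fixes the sign of their ratio. Several well-known members stayed near 1, with Isg15 at a log2 ratio of 0.18 and Ifitm3 at 0.12. Constitutive proteasome subunits showed no such lean, with 0 of 29 past 2-fold and a median of 0.09.

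Cell cycle genes leaned towards AGM-s3-A9. Of 41 measured mitotic genes, 38 had a ratio above 0, 10 were at least 2-fold higher and none 2-fold lower. The median log2 ratio of the list, 0.68, stood beside 0.0058 for all genes. Some of the 38 were above detection in AGM-s3-A9 alone, so that the floor fixed the sign of their ratio. Aurkb, Tpx2 and Cenpe of the 10 are among these, as are Bub1 (57.2 and 17.8) and Ncaph (55.0 and 10.4). Ube2c (33.1 and 67.4), below 0, was above detection in AGM-s3-A7 alone. Top2a, the topoisomerase that untangles chromosomes, read 164 and 66.5 (2.47-fold). Cdc20, an activator of the anaphase-promoting complex, read 239 and 97.3 (2.45-fold), and Ccnb2, a B-type cyclin, 403 and 183 (2.20-fold). Smc2, a condensin subunit, was 2.72-fold higher and Cks2 2.43-fold. Aurkb, the kinase of the chromosomal passenger complex, was read at 131 and 40.5 (at least 2.68-fold). Mki67, the proliferation marker Ki-67, gave 133 and 51.3 on one probe set and 51.9 and 38.1 on another. The mitotic cyclin-dependent kinase Cdk1 lay at a log2 ratio of 0.54 and the transcription factor Foxm1 at 0.26. Under the 12 alternative settings the median of this list, less that of all genes, ranged from 0.27, with the floor at the 75th percentile, to 0.89, with the values as deposited.

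Genes of DNA replication had the same lean at smaller size. Of 31 measured members, 26 had a ratio above 0 and 2 were at least 2-fold higher, with a median of 0.44. Pold2, a subunit of DNA polymerase delta, read 322 and 105 (3.05-fold), and Rfc2, of the clamp loader, 183 and 90.3 (2.03-fold). Pcna, the sliding clamp, read 494 and 292. Mcm5 was read in opposite directions, at 443 and 548 on MG-U74C and 356 and 147 on MG-U74A. A list of G1 phase regulators and growth arrest genes was mixed, with 2 of 23 higher and 2 lower. Gas6, a secreted ligand of TAM receptors named for its rise in growth arrest, read 1126 and 424 (2.66-fold higher), and the inhibitor Cdkn1a 174 and 79.8 (2.18-fold higher). The inhibitor Cdkn1c read 25.4 and 145 (at least 2.96-fold lower) and the kinase Cdk6 63.1 and 154 (2.45-fold lower). The growth state of the cultures at harvest is not given in the labels, and its part in these differences was not tested.

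The promoters of mitotic genes commonly hold CCAAT boxes and a cell cycle homology region, the letters TTTGAA, which are read by factors that restrict transcription to late cell cycle phases. In the 250 bases before the start of each RefSeq transcript (GRCm38.p6), searched on both strands, CCAAT was found in 79.4% of 34 promoters of measured mitotic genes and in 33.8% of all 32851 promoters. TTTGAA was found in 41.2% and 16.0%. Of the 10 mitotic genes at least 2-fold higher, 7 had a promoter in the table, all 7 held CCAAT and 5 held both motifs. Those 5 are shown because they are the called genes in which both motifs can be seen; capitals mark CCAAT and TTTGAA on either strand (ATTGG and TTCAAA on the other), and each sequence runs 5′ to 3′ on the gene's strand and ends at the base before the start.
Ccnb2, chr9:70421555-70421804, minus strand: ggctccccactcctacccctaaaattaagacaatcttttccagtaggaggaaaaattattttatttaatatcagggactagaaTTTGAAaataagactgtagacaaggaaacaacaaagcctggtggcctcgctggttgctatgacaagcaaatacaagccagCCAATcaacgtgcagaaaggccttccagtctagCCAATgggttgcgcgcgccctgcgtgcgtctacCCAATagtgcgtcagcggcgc
Cdc20, chr4:118437344-118437593, minus strand: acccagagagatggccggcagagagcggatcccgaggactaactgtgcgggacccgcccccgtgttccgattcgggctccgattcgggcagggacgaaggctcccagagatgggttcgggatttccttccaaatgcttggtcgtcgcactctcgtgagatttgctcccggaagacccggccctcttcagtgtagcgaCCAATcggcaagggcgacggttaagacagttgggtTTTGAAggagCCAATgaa
Mki67, chr7:135716380-135716629, minus strand: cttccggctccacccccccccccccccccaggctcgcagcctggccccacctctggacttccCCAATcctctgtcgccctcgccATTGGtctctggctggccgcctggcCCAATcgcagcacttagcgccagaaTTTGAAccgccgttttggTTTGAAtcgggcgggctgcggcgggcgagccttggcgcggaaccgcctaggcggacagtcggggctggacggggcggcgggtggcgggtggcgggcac
Smc2, chr4:52438971-52439220, plus strand: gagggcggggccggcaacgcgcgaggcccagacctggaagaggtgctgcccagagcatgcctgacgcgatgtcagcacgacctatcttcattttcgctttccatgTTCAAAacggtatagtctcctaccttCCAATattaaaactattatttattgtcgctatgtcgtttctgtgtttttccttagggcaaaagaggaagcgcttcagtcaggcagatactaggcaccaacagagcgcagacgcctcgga
Top2a, chr11:99024190-99024439, minus strand: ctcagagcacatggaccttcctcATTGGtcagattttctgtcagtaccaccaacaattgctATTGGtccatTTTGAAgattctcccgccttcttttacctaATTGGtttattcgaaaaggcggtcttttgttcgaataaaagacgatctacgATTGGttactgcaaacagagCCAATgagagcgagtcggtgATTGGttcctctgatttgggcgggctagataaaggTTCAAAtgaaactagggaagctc
In Cdc20 the TTTGAA begins 18 bases before the start, between CCAAT boxes that begin 53 and 8 bases before it. Ccnb2 holds 3 CCAAT boxes and Top2a 6, whereas Smc2 holds 1. The match of letters is a description and says nothing on which factor was bound in either line.

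Receptor tyrosine kinases signal through the kinase ERK, which induces immediate early transcription factors within minutes and, later, inhibitors that dampen the pathway. The inhibitors Spry1 and Spry2, the sprouty proteins, read 737 and 129 (5.73-fold) and 1154 and 235 (4.91-fold). Il17rd, a membrane inhibitor of FGF signalling, read 246 and 39.7 (at least 4-fold), and Errfi1, which blocks the EGF receptor, 2069 and 892 (2.32-fold) with a second probe set at 1219 and 470. All 4 were higher in AGM-s3-A9. Of 14 measured ERK feedback genes these 4 were the ones past 2-fold and none was lower by that much. The ERK phosphatase Dusp6 read 324 and 182, while Spry4 lay at a log2 ratio of -0.85 and Spred1 at -0.01. The median of the list was 0.29; on MG-U74A alone, without the probe sets of Spry1, Spry2 and Il17rd given above, it lay 0.17 below that of all genes.

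Immediate early genes moved apart. Of 17 measured, 5 were at least 2-fold higher, 2 at least 2-fold lower, and the median was 0.31. Egr1 read 633 and 227 (2.78-fold higher), Fos 139 and 46.0 (at least 2.84-fold higher) and Fosl1 158 and 63.2 (2.50-fold higher). Nr4a1, an orphan nuclear receptor, read 359 and 104 on MG-U74A but 33.2 and 73.8 on MG-U74B, where the first value is below detection. The lower genes were Fosl2, at 265 and 1028 (3.87-fold lower), and Myc, at 85.5 and 177 (2.07-fold lower). The serum response element, which couples ERK signalling to early genes, was found in 31.2% of 16 promoters of measured early genes and in 1.47% of all promoters. Of the 5 higher genes 3 had a promoter in the table and 1, Egr2, held the element in these 250 bases; it is shown in capitals, 72 bases before the start.
Egr2, chr10:67537316-67537565, plus strand: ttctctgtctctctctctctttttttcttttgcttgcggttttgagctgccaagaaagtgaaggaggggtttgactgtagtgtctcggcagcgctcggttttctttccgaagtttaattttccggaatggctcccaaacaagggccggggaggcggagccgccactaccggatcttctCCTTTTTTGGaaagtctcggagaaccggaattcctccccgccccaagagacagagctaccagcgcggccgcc
The interferon-stimulated response element, searched as GAAANNGAA, was found in 40.9% of 22 promoters of measured interferon-induced genes and 7.13% of all, but in none of the 3 promoters available for the 4 interferon-induced genes at least 2-fold higher.

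Secreted Wnt antagonists bind Wnt ligands or their receptors outside the cell. Beside Sfrp4, Sfrp1 read 2861 and 882 on MG-U74B (3.25-fold higher) and 1537 and 559 on MG-U74A (2.75-fold). Sfrp2 read 2371 and 1202 (1.97-fold), just under the mark, and Dkk3 581 and 533. Of 11 antagonists with a probe set 5 were measured, 2 of them higher and none lower by 2-fold, with a median of 0.98. Ligands and receptors held 1 lower gene of 22, Wnt10a, at 44.0 and 105 (at least 2.15-fold). Among 12 measured target and pathway genes, 1 was higher and 3 lower. Nkd2, an inhibitor induced by Wnt signalling, read 74.6 and 246 (3.30-fold lower), Ccn5 93.8 and 266 (2.83-fold lower) and the receptor Lgr5, at 116 in AGM-s3-A7, was below detection in AGM-s3-A9 (at least 2.37-fold lower). Lgr4, its relative, read 206 and 103 (2-fold higher).

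The remaining signalling lists differed in their counts. No member passed 2-fold among 11 of the Notch pathway, 18 of the BMP pathway and 8 of the PDGF and EGF families, numbers in which the shares over all genes (3.04% higher, 2.24% lower) would give about as few. In the TGF-beta pathway 2 of 23 were lower, the receptor Tgfbr2 at 573 and 1192 and the activin subunit Inhbb at 1.77 and 111. The IGF axis had 1 of 11 higher and 3 lower. Igf1 read 930 and 439 on its brightest probe set (2.12-fold higher), with 3 others at lower ratios in the same direction. Its receptor Igf1r read 363 and 788 (2.17-fold lower) on a probe set whose suffix marks possible binding of related transcripts. The 3 other measured probe sets of Igf1r went the same way without passing 2-fold. Igfbp6, a binding protein that prefers IGF2, read 281 and 774 (2.75-fold lower). Htra1, a protease that cleaves IGF-binding proteins, read 695 and 2121 on MG-U74A but 1228 and 1142 on MG-U74C, and its direction changed with the choice of probe set. Of 11 measured ephrins and Eph receptors 2 were higher and none 2-fold lower. The ligand Efnb1 was higher on both probe sets, at 514 and 222 and at 196 and 71.8. Ptch1, the hedgehog receptor and target, read 200 and 99.9 (2-fold higher), and its 2 other measured probe sets went the same way without passing 2-fold.

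The matrix differed by its parts. Fibrillar collagens, the bulk of connective tissue, held 0 of 7 past 2-fold, with a median log2 ratio of -0.10. Some basement membrane chains were higher in AGM-s3-A9 and others were not. Col4a1 read 1780 and 385 (4.62-fold) and its partner Col4a2 1448 and 385 (3.76-fold), with 375 and 165 on a second array type. Lama1, a laminin chain of embryonic basement membranes, read 176 and 52.4 (3.35-fold). Lama5, a chain of mature basement membranes, read 75.3 and 181 (2.40-fold lower), so that the laminins held 1 gene in each direction of 6. The laminin median was 0.55, with 5 ratios above 0 and 1 below. Lamb2 lay at a log2 ratio of 0.36 and Col4a5 at -0.29. Of 15 other collagens 4 were higher and none 2-fold lower, with a median of 0.29. Enzymes that modify collagen had a median of 0.55 over 12 genes. The lysyl hydroxylases Plod2 (1076 and 429) and Plod3 (532 and 247) passed 2-fold. Of 2 other measured probe sets of Plod3, 1 went the same way and 0 passed 2-fold. Lox, which crosslinks collagen and elastin, read 2034 and 3003.

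Small leucine-rich proteoglycans lay on the other side. Of 8 measured, 3 were at least 2-fold lower and none higher, and the median of -0.74 was the lowest of all lists with 5 or more measured genes. Aspn (31.8 and 154, at least 2.92-fold lower) joined Dcn and Prelp, and Lum lay at a log2 ratio of -0.98. Bgn, the close relative of decorin, read 5492 and 5293. Elastic fibre genes divided, with 2 of 17 higher and 3 lower. The higher ones were Mfap2 and Fbn2 (360 and 80.1, with 412 and 42.1 on another probe set). The lower ones were Mfap5 (202 and 1077), and 2 fibulins, which bind elastic fibres, Fbln5 (655 and 1592) and Fbln2 (542 and 1187).

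In the list of glypicans, syndecans and other proteoglycans 3 of 12 were higher and 1 lower. Gpc6 and the syndecan Sdc3 (383 and 147), both at the cell surface, and Vcan (1720 and 616), which encodes the secreted, hyaluronan-binding versican, were higher, and Sdc2 (675 and 1614) was lower. Matricellular genes were higher for 4 of 17 and lower for 3. Matn4 read 651 and 160 (4.06-fold higher) and Ccn2 309 and 149 (2.07-fold higher), whereas Postn, a fibroblast protein of growing connective tissue, read 582 and 1852 (3.19-fold lower). Proteases were divided too. Mmp9 (562 and 116) and Mmp16 (2.60-fold) were higher, while Mmp3, Mmp13 (1091 and 2769) and Mmp11 (156 and 331) were lower. Mmp14, the main membrane-bound collagenase of stroma, read 1597 and 1622. The protease inhibitor Serpina3n read 17.0 and 162 (at least 3.30-fold lower).

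Integrin subunits, the receptors for this matrix, lay below 0 in 9 of 11, with a median of -0.39. Itgbl1 alone passed 2-fold, and it encodes a secreted relative rather than a receptor chain. Itgb1, the common beta chain, read 2252 and 2955, and of its 2 other measured probe sets 1 went the same way. Among the 9 below 0, Itga5, Itga8 and Itga3 lay at log2 ratios of only -0.02, -0.03 and -0.05. Thy1, a surface glycoprotein of fibroblasts, read 416 and 206 (2.02-fold higher). Gja1, the gap junction protein connexin 43, read 3186 and 1759 (1.81-fold) and 467 and 162 on another probe set (2.89-fold, past the mark).

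Among metabolic lists some were even and others leaned to 1 side. The respiratory chain had 0 of 50 past 2-fold and a median of 0.10, and cytosolic ribosomal proteins 0 of 25 and -0.02. Cholesterol synthesis leaned towards AGM-s3-A7 without a member passing 2-fold, as 17 of 22 ratios were below 0 and the median was -0.35. Its widest differences were in Msmo1 and Sc5d, at log2 ratios of -0.89 and -0.88, and Sqle read 515 and 934. Genes of the amino acid and unfolded protein response were lower for 4 of 24 and higher for none, with 18 below 0 and a median of -0.30. Asns, which makes asparagine, read 653 and 1496 (2.29-fold lower), Chac1, which breaks down glutathione, 115 and 279 (2.43-fold lower), Psph, of serine synthesis, 139 and 312 (2.25-fold lower) and the amino acid transporter Slc7a5 278 and 600 (2.16-fold lower). Their common activator Atf4 lay at -0.72. Heat shock and chaperone genes had a median of -0.28, with 18 of 23 below 0 and 1 lower, Hsph1 (357 and 725), but with the values as deposited their median lay 0.14 above that of all genes. The chaperone Hspa5, a target of the unfolded protein response, read 1816 and 1476. Glycolysis had a median of 0.34 over 17 genes, and the phosphofructokinase Pfkl read 929 and 414 (2.24-fold higher).

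**Figure D3:**
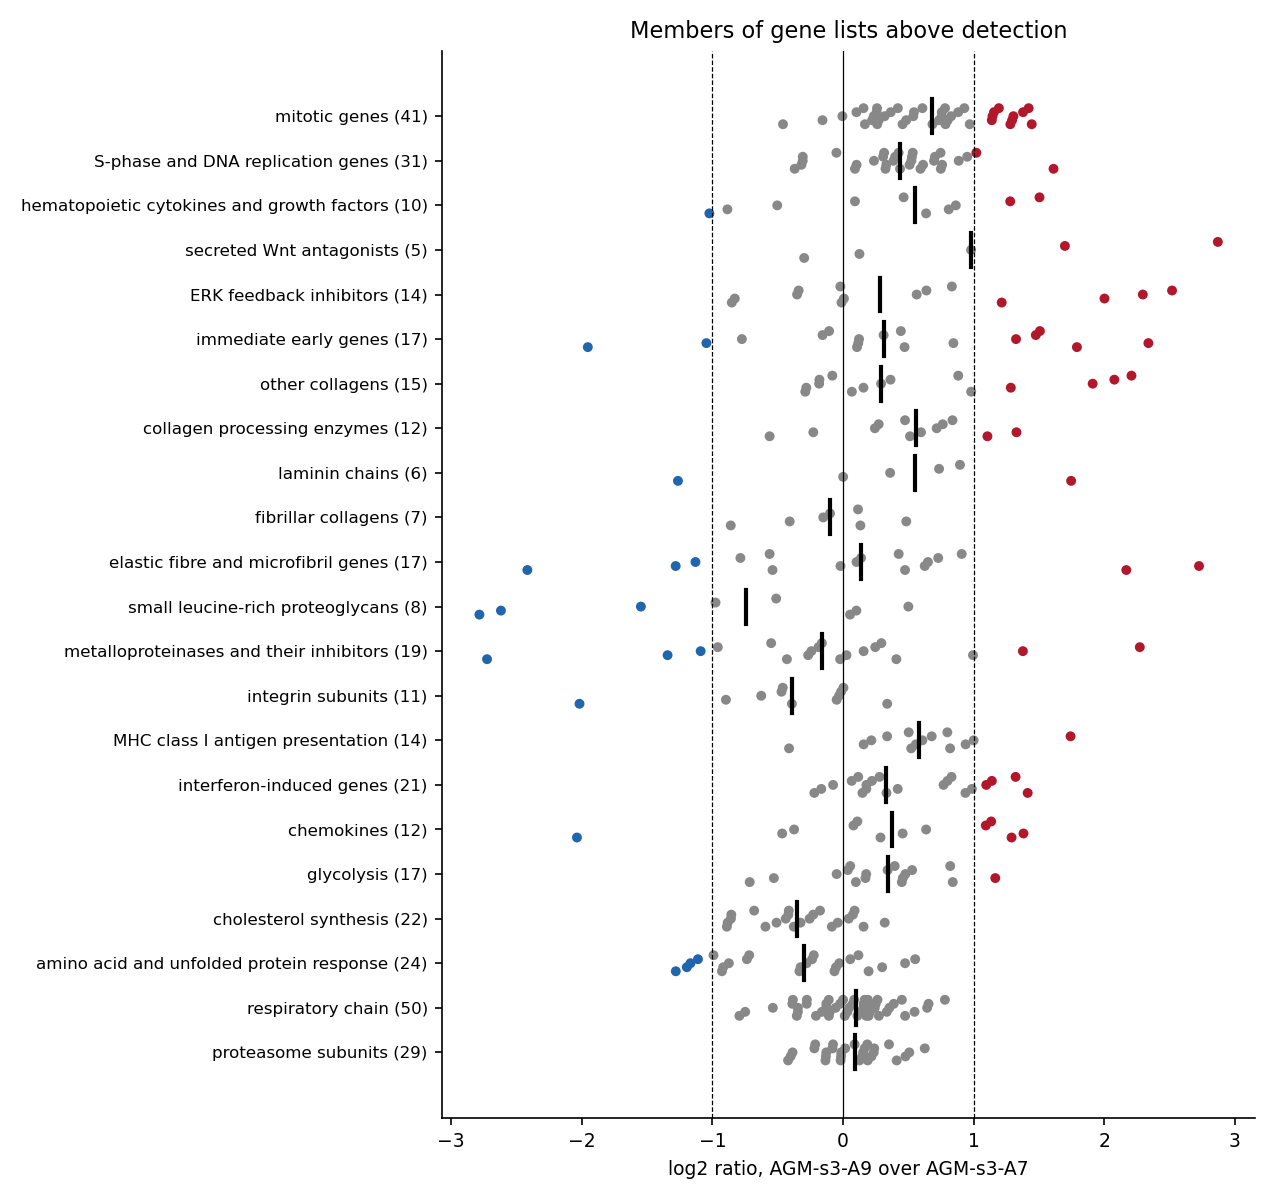
Log2 ratio of AGM-s3-A9 over AGM-s3-A7 (x axis) for the measured members of 22 gene lists (rows, number of members in brackets); points are genes, red at least 2-fold higher and blue at least 2-fold lower, short black bars are list medians and dashed lines mark 2-fold. Mitotic genes sit almost all to the right of 0 with a median of 0.68, small leucine-rich proteoglycans reach far to the left with a median of -0.74, and respiratory chain and proteasome genes stay within the dashed lines.

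Ratios also varied by chromosome. The median log2 ratio was 0.24 over 706 genes of chromosome 2, 0.20 over 490 of chromosome 4 and 0.20 over 303 of chromosome 14. It was -0.20 over 459 genes of chromosome 8, -0.20 over 263 of chromosome 12, -0.17 over 375 of chromosome 15 and -0.16 over 215 of chromosome 18. The other autosomes and the X chromosome lay between -0.06 and 0.04. On each of these 7 chromosomes the 3 array types gave medians of the same sign, such as 0.25, 0.25 and 0.13 on chromosome 2 and -0.22, -0.22 and -0.15 on chromosome 12. The array types share some genes, but each gene was counted only on the type of the probe set that stood for it. The shift was spread along the chromosomes. In windows of 25 neighbouring genes the median was above 0 in 27 of 28 windows on chromosome 2, 18 of 19 on chromosome 4 and 12 of 12 on chromosome 14, and in 0 of 18 on chromosome 8 and 0 of 15 on chromosome 15. On chromosome 2, 72.7% of genes had a ratio above 0, and on chromosome 12, 27.8%. The called genes followed in part, with 37 of 706 (5.24%) higher and 6 lower on chromosome 2. On chromosome 12, 2 were higher and 18 of 263 (6.84%) lower. They hardly followed on chromosome 8, with 11 of 459 (2.40%) higher and 14 (3.05%) lower. The same held for chromosome 18, with 7 of 215 (3.26%) higher and 8 (3.72%) lower. These shifts are small beside the 2-fold mark, so they move many genes a little. The sign held for all 7 under every alternative setting, with chromosome 14 at its lowest with the values as deposited, 0.025 above the median of all genes.

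**Figure D4:**
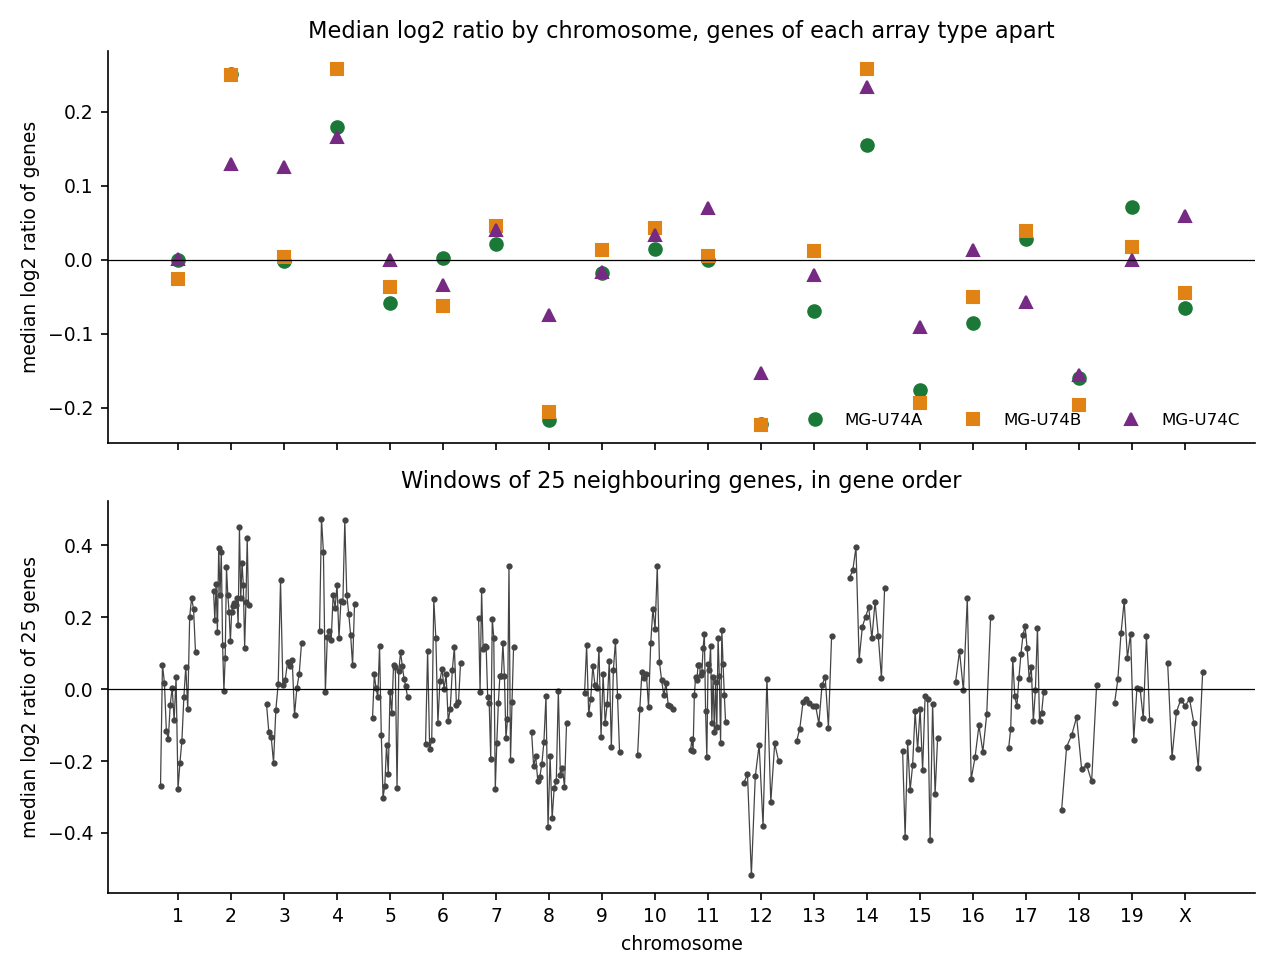
Top, median log2 ratio of AGM-s3-A9 over AGM-s3-A7 (y axis) of the measured genes of each chromosome (x axis), with the genes of each array type apart (circles MG-U74A, squares MG-U74B, triangles MG-U74C). Bottom, medians of windows of 25 neighbouring genes in gene order along each chromosome; chromosomes 2, 4 and 14 lie above 0 on all 3 array types and chromosomes 8, 12, 15 and 18 below.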

How the data were processed

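Gene expression in 3 mouse stromal lines was measured on 9 Affymetrix arrays, 1 for each line and array type. Per the labels' protocols, total RNA from RNeasy columns was turned into biotinylated cRNA from 6 ug. The deposited values are 1 linear intensity a probe set; for the authors' scanner software, background handling, summarisation and scaling the sources say nothing (not given in the sources used here). No depth applies to arrays, and their number limits the precision.

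Log2 values of the 3 arrays of a type were quantile-normalized, which removes any general shift between lines. The detection level was the higher of the median and the 95th percentile of 34 negative control probe sets. Of 36701 probe sets, 29131 had 1 symbol in the platform annotation, 724 several and 6846 none; only the first were named, and the probe set with the highest mean log2 value over both AGM lines stood for a gene. Chromosomes, gene order and promoters came from RefSeq tables of GRCm38.p6. Of the 8585 measured genes, 6959 had a promoter in the set searched, which left out chromosome 18. A gene was called at 2-fold, with no test and no replicate left out. Python 3.11.15, numpy 2.4.6 and pandas 2.3.3 were used, and the steps were tested on simulated arrays.

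Named genes are, in each direction, the 15 with the largest fold above detection in both AGM lines and the 10 with the largest bound, up to 4 called and 2 bright uncalled members of each list, and Kitl, Cxcl12, Csf1, Vcam1 and Dlk1. Other members given by their log2 ratio alone, and marker genes, were chosen after their values were seen. The members and the 60 gene lists were chosen with earlier results of these data known.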

Additional observations from a re-analysis of the deposited data

How the results depend on the processing

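Of 14 alternatives, the probe set with the highest value and MG-U74A alone were added after the data were seen. Counts are given as genes higher and lower, then probe sets higher and lower, in AGM-s3-A9. With the floor at the median they were 414 and 337, and 788 and 688; with the floor at the 75th percentile 140 and 109, and 195 and 156. With the values as deposited they were 1117 and 278, and 1513 and 493; with hybridization control scaling 578 and 104, and 808 and 167. At a fold of 1.5 they were 894 and 737, and 1288 and 1212; at a fold of 3, 58 and 45, and 84 and 61. MG-U74A alone, with fewer probe sets, gave 158 and 109, and 206 and 137. Every other setting stayed within 1.5 times the reported counts, as did the 278 genes lower with the values as deposited.

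Of 148 named genes past 2-fold, 147 kept their direction under every setting that measured them and 72 also kept 2-fold. The exception was Htra1, whose log2 ratio of -1.61 became 0.11 with quantiles of the AGM arrays alone, 0.35 with 75th percentile scaling and 0.10 with the probe set chosen by 3 lines; each of these took its other probe set. Most losses of 2-fold came with the floor at the 75th percentile (40 of 128 genes), the values as deposited (33 of 148) and hybridization control scaling (21 of 148). Relative to all genes, the medians of 36 of 60 lists and 14 of 20 chromosomes kept 1 sign. No paired analysis was possible because each line has 1 array of a type. For the same reason no replicate could be left out, and the spread between cultures is unknown. Dim genes carry bounds only, and a general shift between the lines cannot be told apart from array scaling.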

Other observations

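Hoxa5 read 247 in AGM-s3-A9 and 83.4 in AGM-s3-A7 (2.97-fold higher), and Hoxc8 read 39.5 and 214 (at least 3.48-fold lower); the other 15 of 17 measured Hox genes were within 2-fold. Of 37 measured mesenchymal transcription factors 3 were higher and 2 lower, and the relatives Twist2 (200 and 88.6) and Twist1 (130 and 263) lay on opposite sides. Pericyte and stromal surface markers held 2 of 14 higher and 1 lower, with Enpep, an aminopeptidase, at 510 and 134 on one probe set and 109 and 110 on another, and S100a4 at 498 and 1734 (3.48-fold lower). Stromal fibroblast markers, which were listed to check the cell type, held 1 of 15 higher (Thy1) and 4 lower (Dcn, S100a4, Postn and Fbln2). Of 20 measured adipogenic and lipid genes 2 were higher and 1 lower. Lpl, which releases fatty acids from lipoproteins, read 878 and 203 (4.32-fold higher), with 333 and 111 on a second probe set, and Cebpd, an early adipogenic factor, 421 and 1067 (2.54-fold lower). Smooth muscle genes held 0 of 23 past 2-fold, with Acta2 at 2684 and 2664.

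The hypoxia list held 3 of 23 genes higher and 1 lower. Epas1, which encodes HIF-2 alpha, was higher, while Hif1a read 1464 and 2915 (1.99-fold lower, just short of the mark). Ddit4 read 426 and 196 (2.17-fold higher) and Ndrg1 208 and 547 (2.63-fold lower), though both are known as hypoxia-inducible. The growth arrest genes Gadd45a (94.4 and 315) and Gadd45b (119 and 259) were lower, against the higher Cdkn1a. Phex, a protease gene of mineralising cells, read 144 and 23.4 (at least 2.34-fold higher), and Mgp, which inhibits mineralisation, 673 and 1438 (2.14-fold lower).

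The Y-linked gene Eif2s3y read 143 in AGM-s3-A9 and 6.58 in AGM-s3-A7 (at least 2.92-fold higher), on a probe set whose suffix marks possible binding of related transcripts. Uty, chosen after its values were seen, read 49.0 and 2.51, at the detection level in AGM-s3-A9. Kdm5d and Xist were not above detection in either line, and the X-linked counterpart Eif2s3x read 797 and 882.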
